A study of Mus musculus with 13 samples.

Results

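The TRAIL and Fas death ligands, their receptors and the first proteins that act inside the target cell were followed in 2 populations of mouse natural killer (NK) cells. These are 7 genes of the 54532 identifiers counted in each library, taken by name: the ligands Tnfsf10 (TRAIL) and Fasl, the receptors Tnfrsf10b (the mouse TRAIL receptor) and Fas, the adaptor Fadd, the protease Casp8 and its inhibitor Cflar. No measured value entered the rule that took them, but earlier results of these data were known when the genes and lists were chosen. Liver-resident NK cells (LrNK) were sorted from liver lymphocytes and conventional NK cells (cNK) from splenocytes, so that cell population and organ cannot be told apart in any comparison of LrNK with cNK. All mice were C57BL/6J, aged 8 to 10 weeks, and were either wild type or carried the genotype label CD8KO. The study asked how NK cells of the liver differ where CD8 T cells are missing, as far as its title and labels state its purpose. Total RNA was sequenced from 4 libraries of wild-type LrNK, 3 of LrNK labelled CD8KO, 3 of wild-type cNK and 3 of cNK labelled CD8KO. Nothing in the labels says whether replicate libraries came from separate mice or from pooled mice, so the p-values measure only the spread between these samples, which may be technical.

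TRAIL and Fas ligand are proteins of the tumour necrosis factor (TNF) family that NK cells display on their surface. When they bind their receptors on another cell, the receptor's death domain recruits FADD, FADD recruits caspase-8, and caspase-8 starts apoptosis. cFLIP, the product of Cflar, sits in the same complex and limits caspase-8. TRAIL on liver-resident NK cells, also called type 1 innate lymphoid cells, is a classic marker that sets them apart from circulating NK cells, whereas Fas ligand is part of the killing equipment of both. Mice have a single death-inducing TRAIL receptor, Tnfrsf10b, and decoy receptors that bind TRAIL without a working death domain.

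The proximal promoters of the 2 ligand genes are shown because the contrast between TRAIL and Fas ligand in the 2 populations runs through the results. Each window runs from 200 bases before to 20 bases after the outermost annotated start, in the gene's own direction, from the RefSeq promoter table on GRCm38.p6. Capitals mark matches to short motif cores.
Tnfsf10: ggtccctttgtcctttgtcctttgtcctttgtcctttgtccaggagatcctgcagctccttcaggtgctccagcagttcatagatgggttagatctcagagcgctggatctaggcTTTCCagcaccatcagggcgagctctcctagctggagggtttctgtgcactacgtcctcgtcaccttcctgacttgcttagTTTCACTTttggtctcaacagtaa
Fasl: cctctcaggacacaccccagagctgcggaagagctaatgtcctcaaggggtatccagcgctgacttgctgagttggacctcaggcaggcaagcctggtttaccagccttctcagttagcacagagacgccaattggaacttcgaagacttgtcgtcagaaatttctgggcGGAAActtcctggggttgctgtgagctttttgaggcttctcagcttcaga
The Tnfsf10 window lies at chr3:27316828-27317047 on the plus strand, and the Fasl window at chr1:161788476-161788695 on the minus strand. A total of 5 cores were searched on both strands, after the sequences had been seen: T-box GTGTGA, RUNX TGTGGT, IRF AANNGAAA, STAT TTCNNNGAA and NFAT GGAAA. The Tnfsf10 window held 1 IRF core, read as TTTCACTT with its first base 4 before the start, and 1 NFAT core 85 before the start. The Fasl window held 1 NFAT core 30 before the start and no IRF core. Of 32851 windows of the same length, 18.4% held an IRF core and 50.6% an NFAT core, so the NFAT core is common. T-box, RUNX and STAT cores, which were in neither window, stood in 10.8%, 12.2% and 6.05% of all windows. A match is a stretch of letters and not a measured binding site, and the GENCODE start of Tnfsf10 lies 49 bases upstream of the RefSeq start.

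Totals per library ran from 30578631 counts in LrNK to 72716020 in cNK. Wild-type LrNK libraries 2 and 4, and LrNK libraries 2 and 3 labelled CD8KO, differed far less than any other pair of their group and were each summed and counted as 1 sample, which left n = 3, 2, 3 and 3 samples in the order of the groups above. Among LrNK, 3 libraries (wild type 1 and 3, CD8KO 1) had 13917 to 15797 genes with a count, against 19896 to 22921 in the other LrNK libraries and 22250 to 22778 in cNK. The summed level of 7 markers of resident NK cells was 2154 to 5300 CPM (counts scaled to the library total) in LrNK and 250 to 294 CPM in cNK, and that of 7 markers of conventional NK cells was 65.3 to 273 CPM against 3509 to 3742 CPM, each in the direction of its label. Markers of other cells were present: the sum of 8 neutrophil and monocyte genes was 646 to 8474 CPM in LrNK and 625 to 845 CPM in cNK, and 7 hepatocyte genes gave 26.5 to 46.6 CPM in LrNK and at most 1.32 CPM in cNK. Another 5 erythroid genes gave 152 to 3270 CPM in LrNK and 3.10 to 5.66 CPM in cNK. The 9 T cell genes gave 590 to 1068 CPM against 384 to 433 CPM, with Cd8b1 at 0 in wild-type LrNK. Most of that sum was Trbc1 and Trbc2 (387 to 601 and 311 to 397 CPM in wild-type LrNK), with Cd3e at 14.1 to 34.1 CPM there. In LrNK labelled CD8KO, Cd6, Trac and Cd4 ranged above wild type, Trbc2 and the sum ranged below, and the other T cell genes overlapped. The sum of 9 Kupffer cell genes overlapped between the populations, at 112 to 439 CPM against 166 to 252 CPM, with Clec4f at 0 in cNK. The part of these cells in the differences between LrNK and cNK was not tested. Cd8a was not lost in the libraries labelled CD8KO: it was 41.6 to 45.1 CPM there against 18.5 to 22.4 CPM in wild-type LrNK, and 85.9 to 109 CPM against 0.561 to 0.578 CPM in cNK. Counts per gene do not show whether such reads lie outside a deleted part. The groups are therefore called "labelled CD8KO" throughout, and each direction across that label rests on a label that the Cd8a level goes against. Xist also moved with the label in LrNK, at 0.282 to 1.90 CPM in wild type and 94.9 to 136 CPM in the libraries labelled CD8KO. In cNK it was 0.0291 to 0.299 CPM in wild type and 0.247 to 815 CPM in the libraries labelled CD8KO, so libraries of that group differed among themselves. In LrNK the Xist ranges of wild type and of the libraries labelled CD8KO did not overlap, so Xist level and label cannot be told apart there. The part of these Xist differences in the label comparisons was not tested.

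**Figure D1:**
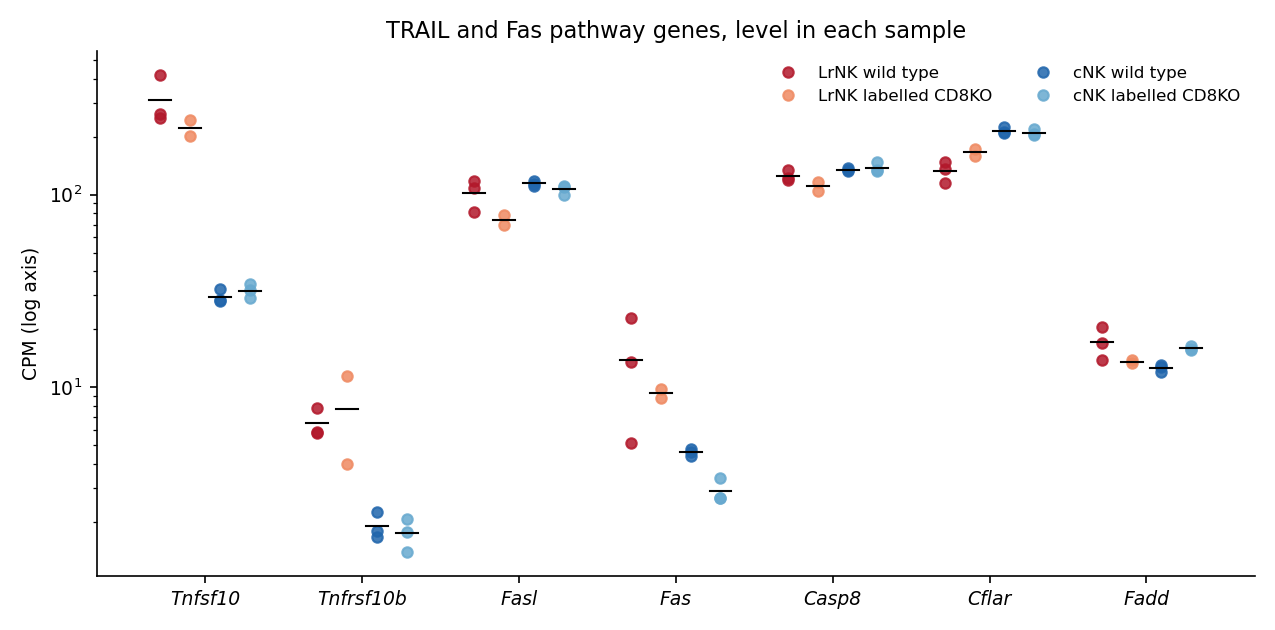
CPM (log axis) of the 7 genes in each of the 11 samples, with summed library pairs shown as 1 point; horizontal bars are group means. Tnfsf10, Tnfrsf10b and Fas lie higher in LrNK (red and orange) than in cNK (blue), while Fasl and Casp8 lie at similar heights in the wild-type groups.

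Of the 7 genes, 3 differed between LrNK and cNK in wild-type mice: Tnfsf10 and Tnfrsf10b were higher in LrNK and Cflar was lower. Among samples labelled CD8KO, Tnfsf10, Tnfrsf10b and Fas were higher in LrNK and none was lower. Calls were made at an adjusted p under 0.05 in edgeR's quasi-likelihood test with Benjamini-Hochberg adjustment over all genes tested, and every adjusted p below is from that test. All 7 genes passed the filter on low counts in each comparison. Of all genes tested, 20.7% were called in wild type (10.9% higher and 9.83% lower in LrNK), and 27% in samples labelled CD8KO (15.4% higher and 11.6% lower), so that a call by itself was common. The samples of the 2 populations did not overlap in CPM for 48.7% of genes in wild type (17% higher and 31.7% lower in LrNK), where 4 of the 7 lay higher and 1 lower. In samples labelled CD8KO they did not overlap for 61.7% of genes (23.3% higher and 38.4% lower), where 3 of the 7 lay higher and 4 lower. In these bulk samples, fewer cells that express a gene and less RNA of it per cell cannot be told apart.

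Tnfsf10, which encodes TRAIL (ENSMUSG00000039304, GRCm38 chromosome 3, 27317028 to 27342427, plus strand), carried the widest difference of the 7 genes. It stood at 420.1, 251 and 264 CPM in the 3 wild-type LrNK samples and at 244 and 201 CPM in the 2 LrNK samples labelled CD8KO. In cNK it was 32.3, 28.4 and 28.0 CPM in wild type and 34.2, 32.1 and 29.0 CPM in samples labelled CD8KO. Every LrNK sample was above every cNK sample, and the lowest LrNK level was several times the highest cNK level. The group means were 312 ± 94.2 CPM (SD, n = 3) and 222 ± 30.4 CPM (SD, n = 2) in LrNK, and 29.6 ± 2.37 and 31.7 ± 2.63 CPM (SD, n = 3 each) in cNK. LrNK exceeded cNK 11.1-fold in wild type (log2 change 3.47 ± 0.22, SE; edgeR adjusted p = 0.000271) and 7.61-fold in samples labelled CD8KO (2.93 ± 0.12; edgeR adjusted p = 0.000222). In order of level, the 2 LrNK groups came first and the 2 cNK groups last, and neither pair of neighbours within a population differed by edgeR's test (values given with the label comparisons).

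Fasl, which encodes Fas ligand (ENSMUSG00000000817, chromosome 1, 161780689 to 161788495, minus strand), was expressed at similar levels in both wild-type populations. Its level was 118, 109 and 80.8 CPM in wild-type LrNK and 118, 111 and 114 CPM in wild-type cNK, and these ranges overlapped. The log2 change of LrNK against cNK was -0.07 ± 0.17 in wild type (SE; edgeR adjusted p = 0.817). In samples labelled CD8KO it was 69.5 and 78.7 CPM in LrNK and 109.8, 100.2 and 112 CPM in cNK. Here both LrNK samples lay below all cNK samples, but the log2 change of -0.40 ± 0.13 did not pass the test (edgeR adjusted p = 0.0675). It passed with DESeq2 (adjusted p = 0.0246). Without sample 1 of LrNK labelled CD8KO the log2 change was -0.28 and without the summed pair -0.58; each leaves 1 LrNK sample, whose spread is then assumed to be that of the cNK samples, so the edgeR adjusted p of 0.00819 and 5.48e-05 add no support. The summed level of 6 general NK cell markers was 2979 to 3004 CPM in those LrNK samples and 7277 to 7573 CPM in those cNK samples, and its part in the Fasl values was not tested.

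Set against each other within a sample, per kilobase of exon, the 2 ligands were close to parity in LrNK and far from it in cNK. The ratio of Tnfsf10 to Fasl was 1.31, 0.850 and 1.20 in wild-type LrNK and 1.29 and 0.938 in LrNK labelled CD8KO. In cNK it was 0.101, 0.0938 and 0.0905 in wild type and 0.115, 0.118 and 0.0956 in samples labelled CD8KO. A ratio within a library is unaffected by library size, and every LrNK ratio was above every cNK ratio. The length used is that of all annotated exons of a gene together, 5266 bases for Tnfsf10 and 1937 for Fasl. The expressed transcript may be shorter, so the near parity depends on that length, while the order of the populations does not. In plain CPM the wild-type LrNK means were 312 for Tnfsf10 and 102 for Fasl. On the same per-kilobase scale Tnfsf10 led the 7 genes in wild-type LrNK, with a mean level of 59.2 CPM per kilobase against 52.9 for Fasl and 43.3 for Casp8. In wild-type cNK, Fasl led with 59.1 CPM per kilobase, and Tnfsf10, at 5.62, came after Casp8 at 46.5 and Cflar at 17.0. That order too depends on length: in plain CPM the wild-type cNK means were 215 for Cflar, 135 for Casp8 and 114 for Fasl.

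**Figure D2:**
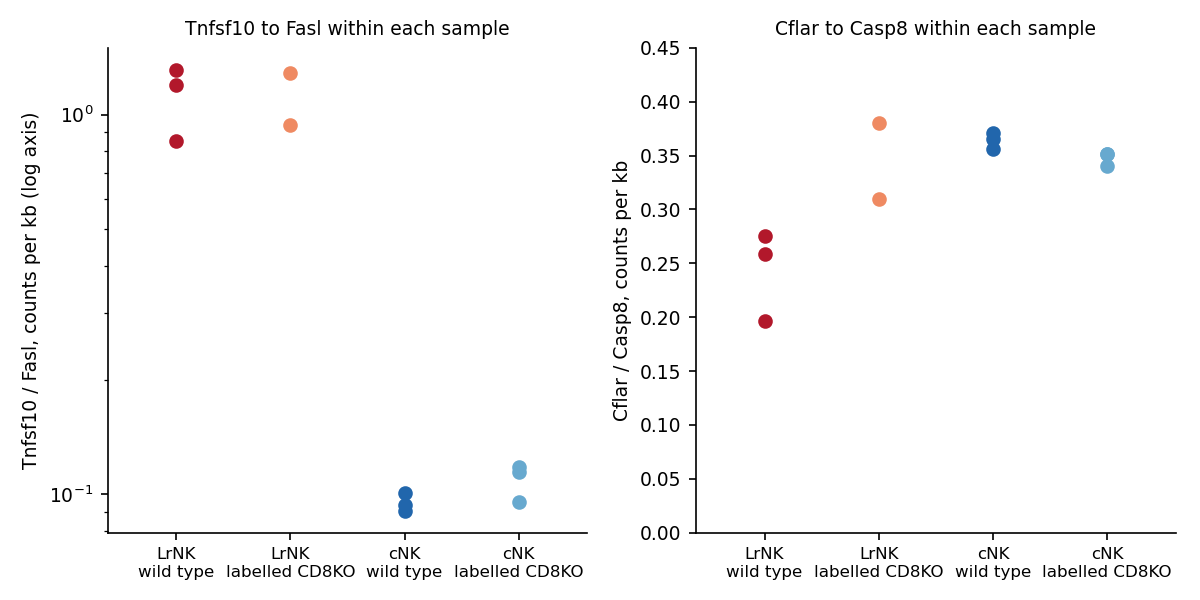
Ratio of Tnfsf10 to Fasl (left, log axis) and of Cflar to Casp8 (right, linear axis from 0) in counts per kilobase of exon, with 1 point per sample in each group. The LrNK samples of the left panel lie between 0.850 and 1.31 and the cNK samples between 0.0905 and 0.118; in the right panel wild-type LrNK is lowest.

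Tnfrsf10b, the death receptor for TRAIL (ENSMUSG00000022074, chromosome 14, 69767472 to 69784411, plus strand), was a low transcript in every sample and higher in LrNK. It was 5.88, 7.80 and 5.79 CPM in wild-type LrNK and 4.01 and 11.4 CPM in LrNK labelled CD8KO. In cNK it was 1.67, 1.79 and 2.26 CPM in wild type and 1.40, 2.08 and 1.78 CPM in samples labelled CD8KO. All LrNK samples were above all cNK samples, and the LrNK pair labelled CD8KO spanned the wild-type LrNK samples on both sides. LrNK exceeded cNK 3.63-fold in wild type (log2 change 1.86 ± 0.44, SE; edgeR adjusted p = 0.0302) and 4.88-fold in samples labelled CD8KO (2.29 ± 0.53; edgeR adjusted p = 0.0280). Neither call stood when any single cNK sample was left out, where the edgeR adjusted p ran from 0.135 to 0.177 in wild type and from 0.0994 to 0.125 in samples labelled CD8KO. The size in samples labelled CD8KO also rested on single LrNK samples, with a log2 change of 2.86 without sample 1 and 1.23 without the summed pair. Per kilobase, the mean level in wild-type LrNK was 1.19 CPM for the receptor and 59.2 CPM for its ligand.

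Fas, the receptor for Fas ligand (ENSMUSG00000024778, chromosome 19, 34290666 to 34327772, plus strand), had the widest spread among wild-type LrNK samples, relative to its mean, of the 7 genes. Its level was 13.6, 5.11 and 23.0 CPM in wild-type LrNK, and 9.75 and 8.84 CPM in LrNK labelled CD8KO. In cNK it was 4.41, 4.77 and 4.60 CPM in wild type and 3.37, 2.66 and 2.67 CPM in samples labelled CD8KO. Every LrNK sample was above the cNK samples of its own label, but the lowest wild-type LrNK sample, the summed pair, was only just above. The 3.14-fold difference in wild type (log2 change 1.65 ± 0.51, SE) did not pass (edgeR adjusted p = 0.0686), whereas the 3.48-fold difference in samples labelled CD8KO did (1.80 ± 0.25; edgeR adjusted p = 0.00617). The wild-type difference passed without the summed pair (log2 change 2.03; edgeR adjusted p = 0.00657) and with DESeq2 (1.66; adjusted p = 0.0106). It was 1.08 without LrNK sample 3 and 0.26 with the summed pair as the only LrNK sample. The neutrophil and monocyte sum moved with Fas among the wild-type LrNK samples, at 2286, 646 and 3993 CPM in the same order, with Ly6g and Retnlg at 0 in all of them; in LrNK labelled CD8KO it was 8474 and 2361 CPM beside Fas at 9.75 and 8.84 CPM. The part of those cells in the Fas values was not tested.

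Of the 3 clustered receptor genes tested from the decoy list, 2 were lower in LrNK labelled CD8KO than in cNK labelled CD8KO, where 11.6% of all genes were lower, and none was called in wild type. Tnfrsf22, a decoy that binds TRAIL without a death domain, was 2.37 and 2.91 CPM in that LrNK group and 12.6, 13.3 and 13.8 CPM in cNK. It fell 4.55-fold (log2 change -2.19 ± 0.23, SE; edgeR adjusted p = 0.00246). Tnfrsf26, a neighbouring gene of the same cluster, was 15.1 and 8.64 CPM against 30.0, 32.2 and 30.0 CPM, 2.41-fold lower (-1.27 ± 0.23, edgeR adjusted p = 0.0145). Whether Tnfrsf26 binds TRAIL was not examined here. In wild type Tnfrsf22 was 4.07, 1.45 and 0 CPM in LrNK against 13.6, 12.03 and 12.6 CPM in cNK (-2.71 ± 1.34; edgeR adjusted p = 0.217). The sample at 0 had no read of Tnfrsf22, which at 3 counts allows up to 0.0768 CPM. Tnfrsf23, a decoy of the same cluster, was not called in either comparison (edgeR adjusted p = 0.239 and 0.763), and the secreted TRAIL decoy Tnfrsf11b had no count in any of the 13 libraries, which allows at most 0.0413 to 0.0981 CPM. The 3 clustered genes are close relatives of one another, so counts may be split between them.

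The protease and the adaptor act inside a cell that receives a ligand, and were measured here in the NK cells themselves. Neither was called between the populations. Casp8, the initiator caspase of both receptors (ENSMUSG00000026029, chromosome 1, 58795374 to 58847503, plus strand), was 122, 119.8 and 134 CPM in wild-type LrNK and 138, 132 and 134 CPM in wild-type cNK, which overlapped. Its log2 change was -0.02 ± 0.10 (SE; edgeR adjusted p = 0.915). In samples labelled CD8KO it was 117 and 104 CPM in LrNK and 134, 133 and 147 CPM in cNK, where LrNK lay below cNK without passing the test (-0.20 ± 0.10; edgeR adjusted p = 0.188). Fadd, the adaptor (ENSMUSG00000031077, chromosome 7, 144577318 to 144582463, minus strand), was 20.6, 13.9 and 16.9 CPM in wild-type LrNK and 12.8, 11.9 and 13.1 CPM in wild-type cNK. The wild-type samples did not overlap, yet the log2 change of 0.52 ± 0.20 was not called (edgeR adjusted p = 0.128). In samples labelled CD8KO the order was the opposite, at 13.9 and 13.3 CPM in LrNK and 16.4, 15.7 and 15.8 CPM in cNK (-0.11 ± 0.14; edgeR adjusted p = 0.621). An antisense gene, Faddos, overlaps exons of Fadd and had 202 counts in all 13 libraries together, so reads of the pair may be shared.

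Cflar, the brake on caspase-8 (ENSMUSG00000026031, chromosome 1, 58711508 to 58758884, plus strand), was lower in wild-type LrNK. It stood at 148, 136 and 116 CPM there and at 224, 212 and 208 CPM in wild-type cNK, with no overlap. The difference was 1.52-fold (log2 change -0.61 ± 0.13, SE; edgeR adjusted p = 0.0227) and was not called when any 1 wild-type cNK sample was left out (edgeR adjusted p from 0.0807 to 0.0981). LrNK labelled CD8KO lay in between, at 159 and 173 CPM, below its cNK counterpart at 207, 204 and 219 CPM (-0.21 ± 0.11; edgeR adjusted p = 0.219). Per kilobase within each sample, the ratio of Cflar to Casp8 was 0.276, 0.259 and 0.197 in wild-type LrNK and 0.371, 0.366 and 0.356 in wild-type cNK. In samples labelled CD8KO it was 0.310 and 0.380 in LrNK and 0.351, 0.351 and 0.340 in cNK. The populations therefore overlapped in this ratio there. The size of the ratio depends on the length of all annotated exons, 12669 bases for Cflar and 2893 for Casp8. In plain CPM the wild-type LrNK means were 133 for Cflar and 125 for Casp8. The order of Cflar levels was wild-type LrNK, LrNK labelled CD8KO, then the 2 cNK groups, which overlapped each other.

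**Figure D3:**
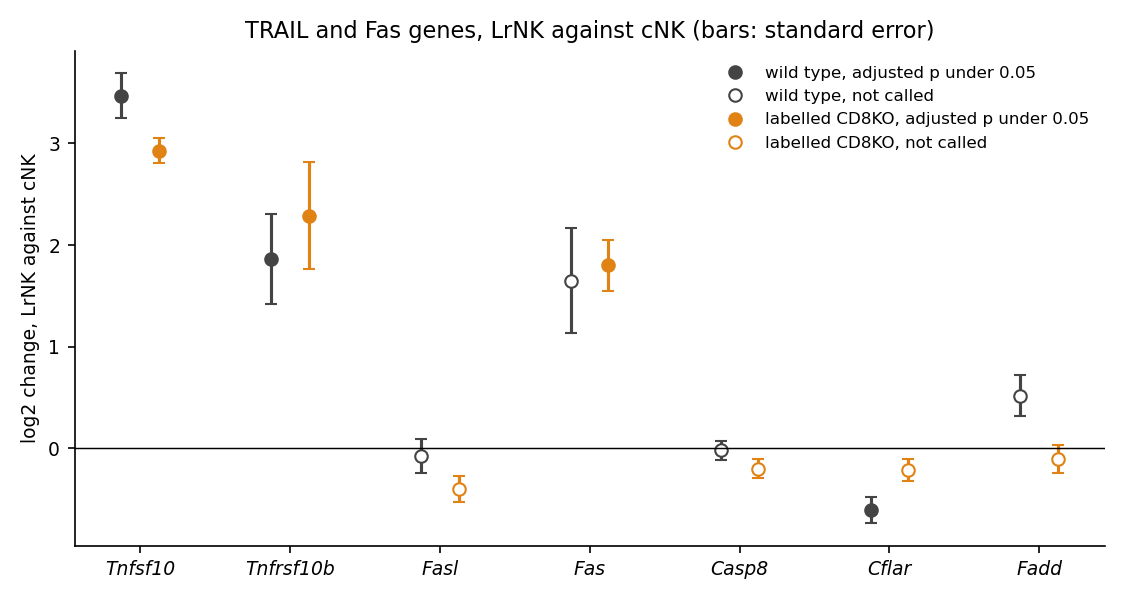
Fitted log2 change of LrNK against cNK (y axis) for the 7 genes, in wild type (grey) and in samples labelled CD8KO (orange); bars are standard errors and filled points have an adjusted p under 0.05. Tnfsf10 lies at 3.47 and 2.93, Tnfrsf10b at 1.86 and 2.29, and the other filled points are Fas in samples labelled CD8KO and Cflar in wild type.

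A list of 48 further genes of the death receptor pathway was read beside these 7, without a test of the list. In wild type 46 were tested, of which 10 (21.7%) were higher in LrNK and 6 (13%) lower, with a median log2 change of 0.09 against -0.08 over all genes. In samples labelled CD8KO, 14 of 46 (30.4%) were higher and 3 (6.52%) lower, with a median of 0.08 against -0.05 over all genes. Most of the higher genes were other ligands and receptors of the TNF family: 7 of 12 in wild type and 9 of 12 in samples labelled CD8KO, with a single one lower, in wild type. Those shares exceed the 10.9% and 15.4% of all genes that were higher, while the 18 adaptors, kinases and brakes (2 higher and 3 lower in wild type, 4 and 1 in samples labelled CD8KO) and the 13 genes of executioner caspases and the mitochondrial arm (1 and 2, then 1 and 0) lay nearer to them.

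Tnf, the founding cytokine of the family, rose furthest among these, with a log2 change of 4.50 ± 0.66 in wild type (SE; edgeR adjusted p = 0.00597) and 5.54 ± 0.95 in samples labelled CD8KO (edgeR adjusted p = 0.0117). Its levels were 33.4, 182 and 159 CPM in wild-type LrNK, 38.2 and 364 CPM in LrNK labelled CD8KO, and 4.55 to 6.30 CPM over all cNK samples. Ltbr, the lymphotoxin beta receptor, rose by 4.05 ± 0.56 and 4.96 ± 0.40 on the log2 scale (edgeR adjusted p = 0.00472 and 0.00118). Tnfaip3, which encodes the A20 brake on NF-kB signalling, rose by 3.80 ± 0.79 and 4.30 ± 0.74 (edgeR adjusted p = 0.0206 and 0.0120). Other death-domain receptors also were higher: Tnfrsf21 (DR6) by 2.80 ± 0.31 and 3.85 ± 0.34, and Tnfrsf25 (DR3) by 2.66 ± 0.29 and 2.49 ± 0.18, each in wild type and in samples labelled CD8KO. Ltbr and Tnfrsf21 moved with the neutrophil and monocyte sum among LrNK samples. In order of that sum (646, 2286, 2361, 3993 and 8474 CPM), Ltbr was 10.8, 25.3, 33.2, 42.96 and 70.3 CPM, and Tnfrsf21 was 26.0, 59.0, 69.9, 56.1 and 149.5 CPM, against 1.06 to 2.43 and 6.21 to 9.42 CPM over all cNK samples. The cNK sums were mostly Ccr2, so the cNK samples have no place in that order. The part of those cells in the higher TNF-family genes was not tested. The remaining largest rises were Lta (lymphotoxin alpha) in wild type, by 2.02 ± 0.51, and Tnfrsf12a, the receptor for TWEAK, in samples labelled CD8KO, by 2.34 ± 0.39.

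The genes of the list that were lower in wild-type LrNK were Tnfrsf14 (HVEM, the receptor for LIGHT; log2 change -1.19), Xiap, which binds and inhibits caspases (-0.91), Casp9, the initiator caspase of the mitochondrial arm (-0.87), Faim (-0.70), Apaf1, which activates caspase-9 (-0.64), and the deubiquitinase Usp8 (-0.59). None of these 6 was called in samples labelled CD8KO, where the lower genes were Tnfrsf22, Tnfrsf26 and Pea15a, a death effector domain protein (-0.50; edgeR adjusted p = 0.0239). Whether the wild-type and CD8KO-labelled differences themselves differ was tested for every gene, and no gene of the list was called.

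**Figure D4:**
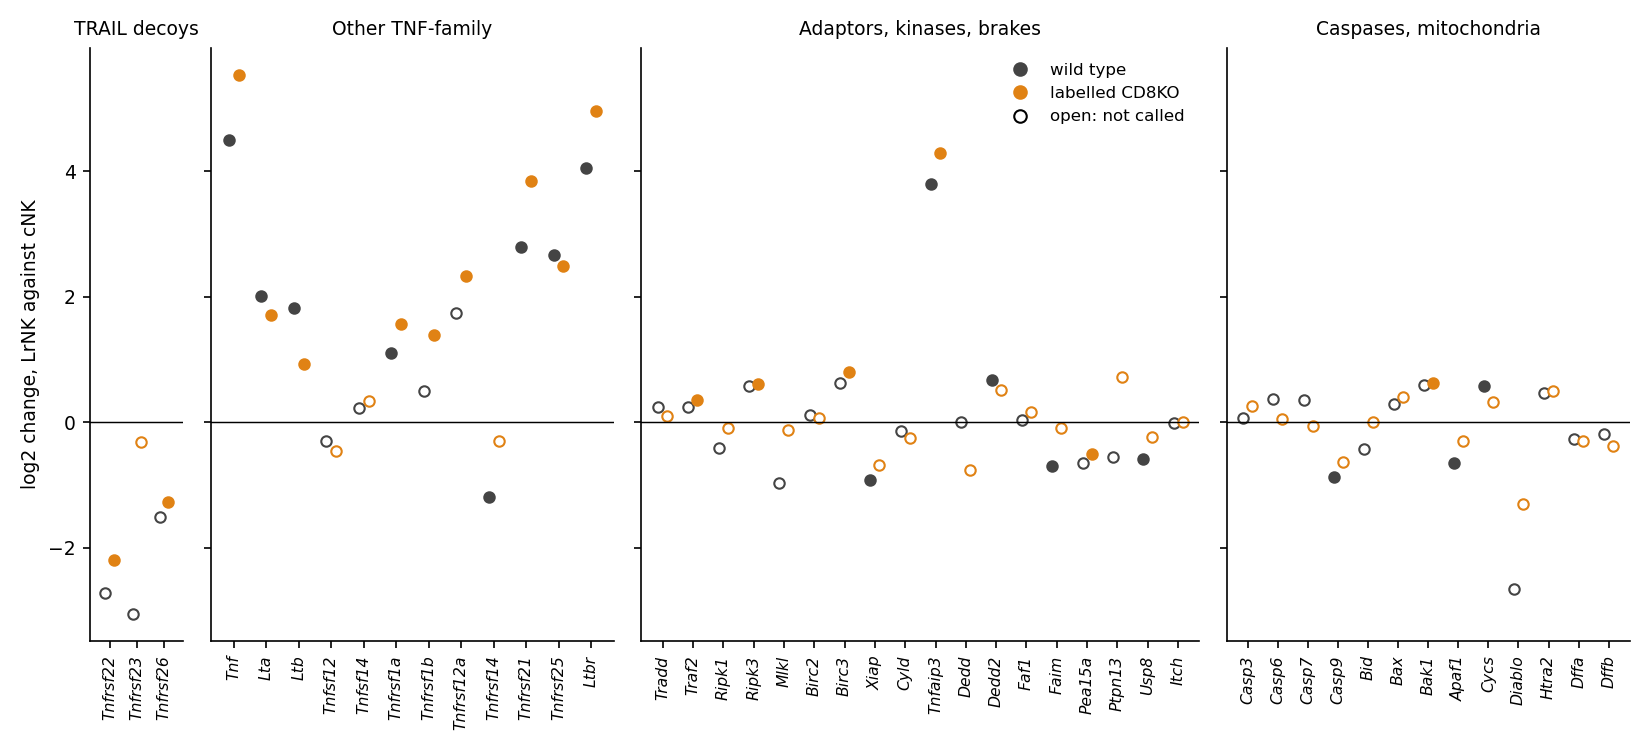
Fitted log2 change of LrNK against cNK (y axis) for the tested genes of the pathway list, in 4 panels by role; grey is wild type, orange is labelled CD8KO, and open points were not called. The other TNF-family genes rise up to 5.54 (Tnf), and the 3 genes of the decoy panel all lie below 0.

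Across the CD8KO label, none of the 7 genes was called in LrNK, where edgeR called 0 of all 16504 genes tested (0% of genes). An unadjusted edgeR p under 0.05 was found for 615, and DESeq2 called 59. The spread between samples of a group, as edgeR's common coefficient of variation, was 98.2% here and 9.6% in cNK. With such a spread, 0 calls do not show that the label had no effect in LrNK. Tnfsf10 was lower in the samples labelled CD8KO (log2 change -0.47 ± 0.27, SE), as was Fasl (-0.45 ± 0.26), and Cflar was higher (0.34 ± 0.22), each with an edgeR adjusted p of 1. For these 3 genes the 2 LrNK samples labelled CD8KO lay outside the wild-type range in plain CPM, as did Casp8 (-0.17 ± 0.20), and 18.3% of all genes tested did the same. Fasl overlapped once CPM was scaled by TMM factors. Taken within each set of LrNK samples, 1 labelled CD8KO against 2 wild type with few detected genes and then 1 against 1 with many, the log2 difference was -0.41 and -0.30 for Tnfsf10, -0.45 and -0.45 for Fasl, -0.10 and -0.19 for Casp8 and 0.32 and 0.37 for Cflar. These rest on single samples and carry no test. The 6 NK markers summed to 4036 to 4695 CPM in wild-type LrNK and 2979 to 3004 CPM in LrNK labelled CD8KO, and their part in the lower ligand values was not tested.

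Both receptors changed sign between these sets. Fas was -0.54 ± 0.63 on the log2 scale, with -0.82 in the set with few detected genes and 0.81 in the other. Tnfrsf10b was 0.28 ± 0.69, with -0.50 and 0.56 in the same sets. Fadd was -0.31 ± 0.34 and below 0 in both sets, at -0.39 and -0.04. For each of these 3 genes the standard error was larger than the estimate.

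In cNK, edgeR called 1.31% of all genes across the label (83 higher and 135 lower of 16619), and none of the 7. Fas and Fadd came nearest. Fas was 4.41, 4.77 and 4.60 CPM in wild type and 3.37, 2.66 and 2.67 CPM in samples labelled CD8KO, a 1.59-fold lower level with no overlap (log2 change -0.67 ± 0.16, SE; edgeR adjusted p = 0.0639). It passed with DESeq2 (adjusted p = 0.00676) and without CD8KO-labelled sample 1 (edgeR adjusted p = 0.0371). Fadd was 12.8, 11.9 and 13.1 CPM against 16.4, 15.7 and 15.8 CPM, 1.26-fold higher with no overlap (0.33 ± 0.08; edgeR adjusted p = 0.0775), and passed with DESeq2 (adjusted p = 0.0129). Of all genes tested, 18% had cNK groups that did not overlap. The neutrophil and monocyte sum was 625 to 727 CPM in wild-type cNK and 751 to 845 CPM in cNK labelled CD8KO. Most of it was Ccr2 (610 to 708 and 731 to 825 CPM), with Lyz2 at most 16.3 and 18.9 CPM. The 7 B cell markers gave 178 to 192 and 227 to 240 CPM, most of it Ighm (165 to 175 and 207 to 220 CPM). The part of such cells in the Fas and Fadd values was not tested.

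The remaining genes moved little across the label in cNK, with log2 changes (SE) of 0.09 ± 0.08 for Tnfsf10, -0.10 ± 0.06 for Fasl, -0.12 ± 0.23 for Tnfrsf10b, 0.03 ± 0.05 for Casp8 and -0.04 ± 0.05 for Cflar. Of the 46 pathway genes tested in cNK, 1 was called: Tnfsf14 (LIGHT, the ligand of HVEM) was 88.7, 91.3 and 82.1 CPM in wild type and 77.0, 62.7 and 63.7 CPM in samples labelled CD8KO (log2 change -0.37 ± 0.08, SE; edgeR adjusted p = 0.0280). In LrNK, where none was called, the smallest p-values belonged to Tnfrsf21 (1.23 ± 0.40), Tnfrsf14 (0.96 ± 0.39) and Ltb, lymphotoxin beta (-0.61 ± 0.25), each with an edgeR adjusted p of 1.

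**Figure D5:**
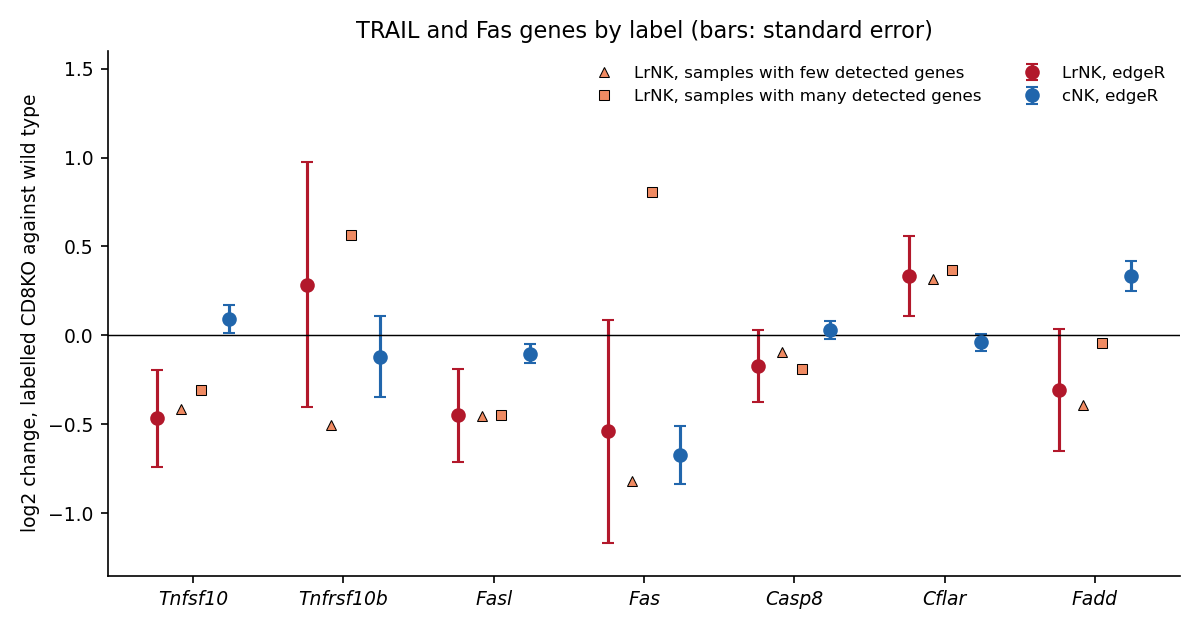
Log2 change of samples labelled CD8KO against wild type (y axis) for the 7 genes: circles are edgeR fits in LrNK (red) and cNK (blue) with standard errors; triangles and squares are untested differences within the LrNK sets of few and of many detected genes. Fas and Tnfrsf10b change sign between the triangle and the square, while the other 5 genes keep theirs.

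The difference between the label's effect in LrNK and in cNK was tested in 1 fit over all 4 groups, which share 1 estimate of the spread. It called 0.0415% of all genes (1 higher and 7 lower of 19287) and none of the 7. For Tnfsf10 the difference was -0.54 ± 0.27 on the log2 scale (SE; edgeR adjusted p = 0.641), for Cflar 0.40 ± 0.17 and for Fadd -0.62 ± 0.27 (both edgeR adjusted p = 0.563). For Fasl it was -0.32 ± 0.22, for Casp8 -0.17 ± 0.14, for Fas 0.15 ± 0.65 and for Tnfrsf10b 0.43 ± 0.70. The standard errors of Tnfsf10, Fasl, Casp8, Cflar and Fadd were smaller here than for the label in LrNK alone (Cflar 0.17 against 0.22). Those of Fas and Tnfrsf10b were not. Sharing 1 estimate with the less variable cNK samples can therefore understate the LrNK spread. Among the pathway genes the smallest p-values belonged to Ltb (-0.89 ± 0.23; edgeR adjusted p = 0.298), Tnfrsf14 (0.91 ± 0.31; 0.453) and Tnfrsf1a, the main TNF receptor (0.47 ± 0.18; 0.501).

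The genes whose pattern over the 11 samples was most like that of Tnfsf10 were Cxcr6, Acpp, Armc7, Retreg1 and Cish, with Pearson r of log2 CPM from 0.9966 (Cxcr6) to 0.9945 (Cish) among 7262 genes compared. Cxcr6, a chemokine receptor of liver-resident lymphocytes, had group means of 262 and 159 CPM in LrNK and 3.83 and 3.14 CPM in cNK, in the order wild type and labelled CD8KO. Cish, a feedback inhibitor of cytokine signalling, had 114 and 82.4 CPM in LrNK and 8.76 and 8.29 CPM in cNK. Such values mostly restate the split between 2 populations, since the samples form 2 clusters. For Fasl, Txk was closest (r = 0.950), followed by Pitpnc1, Rnaseh1, Mllt3 and Ldb1 (r = 0.948 to 0.928). Txk, a TEC-family kinase of T and NK cells, had group means of 316 and 229.8 CPM in LrNK and 338.5 and 339 CPM in cNK. It was chosen for following Fasl over these same samples, so its lowest mean, in LrNK labelled CD8KO, is no second observation.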

How the data were processed

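Sorted NK cell RNA (Trizol, TruSeq RNA kit, per the labels' protocols) was read out as raw counts per gene, 1 deposited table per library. Per the submitters' processing notes, HISAT2 2.1.0 and GRCm38 were used. How reads were assigned to genes, with which annotation and whether by strand, is not stated in those notes or the labels. Of 54532 identifiers, 54495 matched GENCODE M21, whose exon lengths, with all annotated exons of a gene merged, gave levels per kilobase. Even numbers made up 49.5 to 65.2% of counts from 1 to 20 per library.

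CPM is each gene's counts divided by the library total and scaled to the usual CPM total. Libraries of a group with a chi-square per degree of freedom under 4 were summed (3.04 and 2.67, against 196 to 283 for other LrNK pairs). Tests were edgeR 4.0.16 quasi-likelihood fits (R 4.3.3) on the 2 groups compared, with TMM scaling and filterByExpr (minimum count 10, total 15); the difference used all 4 groups. Genes were called at an adjusted p under 0.05. The fits were also run on simulated counts with known changes, drawn independently for each sample. The simulation held no other cells and no sets of detected genes, so it does not cover those features of the LrNK samples. Alternatives used DESeq2 1.42.0, limma 3.58.1 (voom), other scalings, filters, groupings and left-out samples. No correction for batch was made, as the labels name none.

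Named are the 7 genes; pathway genes called in a comparison (over 12, the 6 largest rises and 6 largest falls; none, the 3 smallest p); and the 5 protein-coding genes most like each ligand (mean log2 CPM at least 4, predicted genes left out). Uncalled decoy receptors and Tnfrsf11b were added after their values were seen. The genes and lists were chosen with earlier results of these data known. Totals of 30578631 to 72716020 counts leave a floor of at most 0.0981 CPM (3 counts), which covers counting error only.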

Additional observations from a re-analysis of the deposited data

How the results depend on the processing

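Over the 7 genes and 5 comparisons, 504 values were recomputed under alternatives. Of these, 456 counted as the same, 14 lost and 19 gained a call, 11 changed sign in a fit and 4 moved. For a fit, the same means no change of sign or call. The untested differences within sets of detected genes counted as the same if within the pooled SD of the fitted change, and otherwise as moved. Fas and Tnfrsf10b changed sign between those sets and are not among the 11 for that. Tnfsf10 stayed higher in LrNK than in cNK in all 14 wild-type alternatives (log2 3.19 to 3.58) and in all 13 of those labelled CD8KO (2.82 to 2.98). Some of these leave a lone LrNK sample, and the fit with every library as its own sample splits the summed pairs. Only size and direction are therefore given.

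Sign changes in the fits were these, beside Fas across the label in LrNK with the replicate block, given further below. Across the label in LrNK, Fas was -0.92 to 0.025 without 1 wild-type sample (0.025 without sample 3, -0.57 without sample 1), and Tnfrsf10b was -0.070 with the detected-gene set as a term and -0.77 without the CD8KO-labelled pair. In cNK, Tnfrsf10b was 0.0045 without wild-type sample 3 and -0.26 to 0.0083 without 1 CD8KO-labelled sample (0.0083 without sample 1), and Casp8 was -0.012 to 0.058 without 1 of them (-0.012 without sample 3). For LrNK against cNK in wild type, Fasl was 0.032 without the samples with few detected genes and -0.18 to 0.070 without 1 LrNK sample (0.070 without sample 3). For the difference, Fas was -0.22 without the wild-type pair and Tnfrsf10b -0.62 without the CD8KO-labelled pair. The cause was not tested.

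Counts of all genes called moved with the fit. For the label in LrNK (0 with edgeR on 2 groups) they were 138 with all 4 groups in 1 fit, 59 with DESeq2, 259 without a filter and 22 with every library as its own sample, and 0 without any 1 sample. For the label in cNK (218) they were 1 with all 4 groups, 514 with DESeq2, 590 without a filter and 71 to 254 without 1 sample. For LrNK against cNK they were 11526 in wild type (3414) and 10872 in samples labelled CD8KO (4804) without the samples with few detected genes, and 1021 to 6856 (4554 without LrNK sample 3, 6856 without the LrNK pair) and 1688 to 13004 without 1 sample. Leaving out the samples with few detected genes leaves 1 LrNK sample per label, as leaving out either LrNK sample labelled CD8KO does, and the lone sample is assumed to vary like the cNK samples, so these higher counts say nothing about stability. For the difference (8) they were 337 with DESeq2, 3 with voom, 68 with every library as its own sample, 327 with the set term and 5 to 645 without 1 sample (645 without the wild-type pair, 253 without the CD8KO-labelled pair, 55 without wild-type sample 3).

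Of the 7 genes, DESeq2 called 2 in cNK across the label and the fit without a filter 1 (0 to 1 without 1 sample), and 0 were called across the label in LrNK or for the difference under every alternative. For LrNK against cNK the 3 called in wild type became 1 to 5 without 1 sample, and the 3 called in samples labelled CD8KO became 2 to 6, and 5 without the samples with few detected genes. These counts for LrNK against cNK include fits with a lone LrNK sample, which say nothing about stability. With TMM-scaled CPM, Fadd was 14.3 in LrNK and 15.6 in cNK labelled CD8KO.

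Replicate numbers are shared by the groups, but samples with the same number correlated at 0.0143 to 0.0479 in cNK across the label and at -0.101 to -0.0099 between the wild-type populations, and 2 of 3 and 0 of 3 numbers correlated best with their own. In LrNK across the label, the only 2 shared numbers correlated at 0.299 and 0.492. Those 2 pairs are also the pairs alike in detected genes (number 1 few, number 2 many). With fewer than 3 such pairs and no shared animal or batch in the labels, the numbers were not taken as pairing the samples. With the number as a replicate block, genes called were 180, 355, 1801 and 2162 for the label in LrNK and cNK and for LrNK against cNK in wild type and in samples labelled CD8KO; of the 7 genes, 0, 1, 1 and 1 were called, and Fas across the label in LrNK was 0.16.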

Other observations

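Levels of 2 genes of the TNF response varied within LrNK along with the number of detected genes. Tnfaip3 was 5321 and 5460 CPM in the 2 summed samples with many detected genes (wild type, then labelled CD8KO), and 617, 1784 and 903 CPM in the 3 samples with few. Tnf was 182 and 364 CPM in the first set and 33.4, 159 and 38.2 CPM in the second. Ltbr did not follow that order, at 10.8 and 33.2 CPM in the first set and 25.3, 42.96 and 70.3 CPM in the second, and followed instead the neutrophil and monocyte sum of the same samples (646 and 2361 CPM, then 2286, 3993 and 8474 CPM). In cNK, Tnfaip3 was 170 to 235 CPM. These samples were set side by side after their values were seen, and no test was made.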
